A study of Mus musculus with 12 samples.

Results

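The 10 genes described here encode 3 mRNA decay factors (Zfp36, Zfp36l1 and Zfp36l2), 4 MAP kinase phosphatases (Dusp1, Dusp2, Dusp5 and Dusp6) and 3 inhibitors of NF-kB signalling (Nfkbia, Nfkbiz and Tnfaip3). They were taken by symbol, and all 10 were present among the 32227 genes of the count table and among the 15083 genes with enough counts to be tested. Their RNA was measured by bulk RNA sequencing in 12 libraries of basophil-lineage cells that were sorted from C57BL/6J WT mice, with 3 libraries in each of 4 groups. Basophil progenitors (BaPs) were sorted from the bone marrow (BM) as CD34+ CLEC12A-high cells, pre-basophils from the BM as CD34- CLEC12A-high CD9-low cells, and mature basophils from the BM and the spleen as CD34- CLEC12A-low CD9-high cells. The sample titles call the pre-basophils immature basophils. All groups were CD200R3+ cKit- cells without a named treatment, and age and sex are not given in the sources used here. Each library was made from cells pooled from several animals, so that the errors below describe differences between such pools. None of the 10 genes encodes a protein used in the sort.

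These genes act as brakes on cell activation. ZFP36 (tristetraprolin) and its relatives ZFP36L1 and ZFP36L2 bind AU-rich elements in the 3′ untranslated region (UTR) of short-lived mRNAs, many of which encode cytokines, and recruit the CCR4-NOT complex, which removes the poly(A) tail. The dual-specificity phosphatases remove phosphates from MAP kinases. DUSP1 acts mainly on p38 and JNK, DUSP2 and DUSP5 act on ERK in the nucleus, and DUSP6 acts on ERK in the cytoplasm. IkBα, the product of Nfkbia, holds NF-kB in the cytoplasm, A20, the product of Tnfaip3, edits ubiquitin chains upstream of the IkB kinase, and IkBζ, the product of Nfkbiz, is a nuclear partner of NF-kB that can inhibit or support transcription. Most of these genes are themselves induced by the pathways they restrain, and many respond within minutes to stimulation or to tissue dissociation. Basophils release IL-4, IL-6, TNF and chemokines after crosslinking of the IgE receptor, and MAP kinases and NF-kB act downstream of that receptor.

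Library totals were between 3596108 and 8151030 counts, and the lowest count of a member in a library was 39, for Dusp2 in pre-basophil replicate 1, against at least 287 for each of the other 9. Levels are given as CPM, the counts relative to the library size after TMM scaling, which balances libraries on the bulk of their genes. A single count was worth 0.0968 to 0.318 CPM. All 8 basophil marker genes were detected in every group. Their summed level was 24180 to 65240 CPM in BaPs, 59290 to 67780 CPM in pre-basophils, 10300 to 13000 CPM in BM mature basophils and 5133 to 5812 CPM in spleen mature basophils. In BaPs and pre-basophils most of this sum came from the proteases Prss34 and Mcpt8, which were lower in mature basophils. Cd200r3, Gata2 and Itga2 went the other way. They were at 294 to 584, 757 to 1459 and 32.5 to 63.1 CPM in BaPs, against 1088 to 1154, 2006 to 2455 and 157 to 201 CPM in BM mature basophils. Fcer1a and Ms4a2 overlapped between these groups through BaP replicate 3, at 537 and 413 CPM, and Il3ra nearly did. In BaP replicates 1 and 2, Fcer1a was at 1423 and 1291 CPM, against 856 to 934 CPM in BM mature basophils. Ms4a2 was at 954 and 950 CPM there, against 529 to 616 CPM in BM mature basophils. BaP replicate 3 stood apart from the other libraries. It held the lowest basophil marker sum of the BaPs, a T cell marker sum of 454 CPM against at most 46.1 CPM in any other library, an NK cell marker sum of 571 CPM against at most 53.0 CPM, and an erythroid marker sum of 2408 CPM against at most 261 CPM. B cell markers summed to 211 to 354 CPM in the spleen libraries and to at most 58.2 CPM in BM libraries other than BaP replicate 3. Neutrophil markers, all 10 of which were detected in every group, summed to 1967 to 2431 CPM in BaPs and 999 to 2336 CPM in pre-basophils, against 91.0 to 128 CPM in BM mature basophils and 60.8 to 69.1 CPM in the spleen, and their part in the results was not tested. These markers did not move together. Mpo was at 1792, 1402 and 562 CPM in BaP replicates 1 to 3 and at 623, 441 and 459 CPM in pre-basophils. S100a9 was at 44.7, 227 and 605 CPM in BaPs and at 117, 279.5 and 609 CPM in pre-basophils. The listed markers other than Mpo and Elane were highest in replicate 3 of both groups. Results that rest on BaP replicate 3 are therefore given with and without it.

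The sites that ZFP36 proteins recognise were looked for in the members themselves, because ZFP36 is known to act on its own mRNA as well as on those of other early response genes. The heptamer TATTTAT (DNA letters) was searched in the longest annotated 3′ UTR of each gene on GRCm38. It was present in 7 of the 10 members, against 27.7% of 20791 genes, and the longer form TTATTTATT, which always contains the heptamer, was present in 6 of the 10, against 7.67%. Zfp36, Zfp36l1, Zfp36l2 and Dusp1 each held 3 heptamers, Nfkbia and Tnfaip3 held 2 and Dusp2 held 1. Dusp5, Dusp6 and Nfkbiz held none. Among UTRs within 20% of the same length, at least as many heptamers were found in 1.30% for Zfp36, in 1.31% for Dusp1, in 2.98% for Nfkbia, in 4.29% for Zfp36l1 and in 4.27% for Zfp36l2. The corresponding shares were larger for Tnfaip3, at 13.2%, and for Dusp2, at 15.4%. For 6 of these genes, the 30 bases of the UTR that hold the most heptamers are shown 5′ to 3′ on the transcribed strand, with the heptamer in capitals. The presence of these letters is a description and not evidence of binding in these cells.
Zfp36, chr7:28376958-28376987, minus strand: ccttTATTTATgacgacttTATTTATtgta
Zfp36l1, chr12:80108422-80108451, minus strand: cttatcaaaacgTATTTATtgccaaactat
Zfp36l2, chr17:84184914-84184943, minus strand: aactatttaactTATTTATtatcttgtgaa
Dusp1, chr17:26506159-26506188, minus strand: ggagctggtcctTATTTATttaacaccccc
Dusp2, chr2:127338303-127338332, plus strand: aacagcactttaTATTTATatagaacattg
Nfkbia, chr12:55489608-55489637, minus strand: aggaccacgtttTATTTATtgtgcttttga

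RefSeq promoters were found for 8 of the 10 members, with no entry for Zfp36l2 and Nfkbiz. Motifs of factors that act downstream of MAP kinases, cAMP or NF-kB were searched on both strands in the 250 bases before the start site, and the same window was searched in 32841 promoters. The NF-kB consensus was present for Nfkbia, 20 to 29 bases before the start, and for Tnfaip3 at 3 to 12 and at 116 to 125 bases before it, against 3.90% of all promoters. The CArG box, to which serum response factor binds, was present for Zfp36 and for Dusp5 at the adjoining positions 63 to 72 and 73 to 82, against 1.47%. The cAMP response element TGACGTCA was present for Dusp1 at 136 to 143 bases before the start, against 1.55%. The EGR motif GCGNGGGCG was present for Zfp36 and Dusp2, against 4.70%, and the AP-1 motif TGANTCA for Tnfaip3 and Zfp36l1, against 6.75%. The TATA box letters TATAAA were present for Zfp36l1 at 24 to 29 bases before the start, against 12.4%. For Tnfaip3 they lay much further from the start, at 220 to 225 bases before it and outside the stretch shown. The 4 promoters whose motifs relate most directly to the pathways are shown 5′ to 3′ (RefSeq, GRCm38.p6), with motifs in capitals and without bases that GENCODE annotates as exons of coding genes. In Tnfaip3 the AP-1 motif is also in capitals, and of its start sites the upstream-most is shown. The promoter window of Zfp36 lay inside an exon of another annotated transcript and is not shown.
Dusp1, chr17:26508520-26508722, minus strand: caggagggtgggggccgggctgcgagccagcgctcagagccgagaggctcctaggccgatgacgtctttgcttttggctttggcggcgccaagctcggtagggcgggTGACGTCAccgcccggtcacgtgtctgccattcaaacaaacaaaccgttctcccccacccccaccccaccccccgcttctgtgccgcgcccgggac
Dusp5, chr19:53528895-53529108, plus strand: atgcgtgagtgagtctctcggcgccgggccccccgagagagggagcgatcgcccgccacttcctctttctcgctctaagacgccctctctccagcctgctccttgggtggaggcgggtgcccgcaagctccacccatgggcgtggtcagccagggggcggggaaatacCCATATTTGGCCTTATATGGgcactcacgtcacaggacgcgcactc
Nfkbia, chr12:55492648-55492897, minus strand: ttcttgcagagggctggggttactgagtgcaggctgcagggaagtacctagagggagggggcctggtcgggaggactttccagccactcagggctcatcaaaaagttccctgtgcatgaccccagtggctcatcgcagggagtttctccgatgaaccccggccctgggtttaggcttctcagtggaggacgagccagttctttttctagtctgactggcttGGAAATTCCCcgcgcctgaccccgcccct
Tnfaip3, chr10:19015411-19015547, minus strand: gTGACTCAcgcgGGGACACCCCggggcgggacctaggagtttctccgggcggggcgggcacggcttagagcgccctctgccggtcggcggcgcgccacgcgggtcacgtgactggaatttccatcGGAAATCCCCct

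Differences among the 4 groups were tested with edgeR's quasi-likelihood F test, adjusted by the Benjamini-Hochberg method over all 15083 genes, and genes with an adjusted p under 0.05 were called. By this test 9 of the 10 members differed somewhere among the groups, where 57.8% of all tested genes did. Zfp36 ranked 19 of 15083 by p (adjusted p = 9.00e-09) and Nfkbiz ranked 353 (adjusted p = 5.98e-07). Dusp6 was not called (adjusted p = 0.125). Between pre-basophils and BM mature basophils, 6 of 10 members were called, where 27.3% of all genes were, and all 6 were lower in pre-basophils, where 11.0% of all genes were. The median log2 fold change of the 10 was -0.84, against 0.00 (-0.004) for all tested genes. In 6 of the 10 the libraries of the groups did not overlap, which held for 47.0% of all genes. Without pre-basophil replicate 3, 3 members were called, and 3162 of all genes were called in place of 4112.

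Between BaPs and pre-basophils, 5 of 10 members were called, where 7.08% of all genes were, and all 5 were lower in BaPs, where 4.29% of all genes were. The median log2 fold change was -0.71, against 0.02 for all tested genes, and 6 of the 10 did not overlap between the groups, which held for 25.1% of all genes. The count was 2 without any of the pre-basophil replicates 1, 2 or 3, 3 without BM mature replicate 1, 2 or 3 or spleen mature replicate 1, which are not in this comparison but share its estimate of the spread, and 5 without BaP replicate 3. Of all genes, 1068 were called with every library, 382 to 471 without a pre-basophil library and 1831 without BaP replicate 3. Without a BM mature library or spleen mature replicate 1, 805 to 908 were called. Between spleen and BM mature basophils, 4 of 10 members were called, where 7.83% of all genes were, and all 4 were lower in the spleen, where 4.67% of all genes were. The median log2 fold change was -0.34, against 0.01 (0.005) for all tested genes, and 5 of the 10 did not overlap, which held for 33.7% of all genes. The count was 1 without BM mature replicate 1, BM mature replicate 3 or spleen mature replicate 2, and 2 without spleen mature replicate 1 or 3. Of all genes, 249, 448, 543, 757 and 241 were called in these cases, in the same order, in place of 1181. The 3 remaining comparisons reuse the same libraries. BaPs were lower than BM mature basophils for 7 members, where 45.0% of genes were called and 19.7% were lower, and lower than spleen mature basophils for 6 members, where 54.5% were called and 24.6% were lower. Without BaP replicate 3, 8 members were called against BM mature basophils, all lower in BaPs, and 7549 of all genes were called. Against the spleen, 7 members and 9065 of all genes were called. Of these members Tnfaip3 was higher in BaPs (log2 fold change 0.67) and the others were lower. Pre-basophils were lower than spleen mature basophils for 3 members, where 45.7% of genes were called and 20.5% were lower, and higher for 1, Tnfaip3, where 25.2% were higher.

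**Figure D1:**
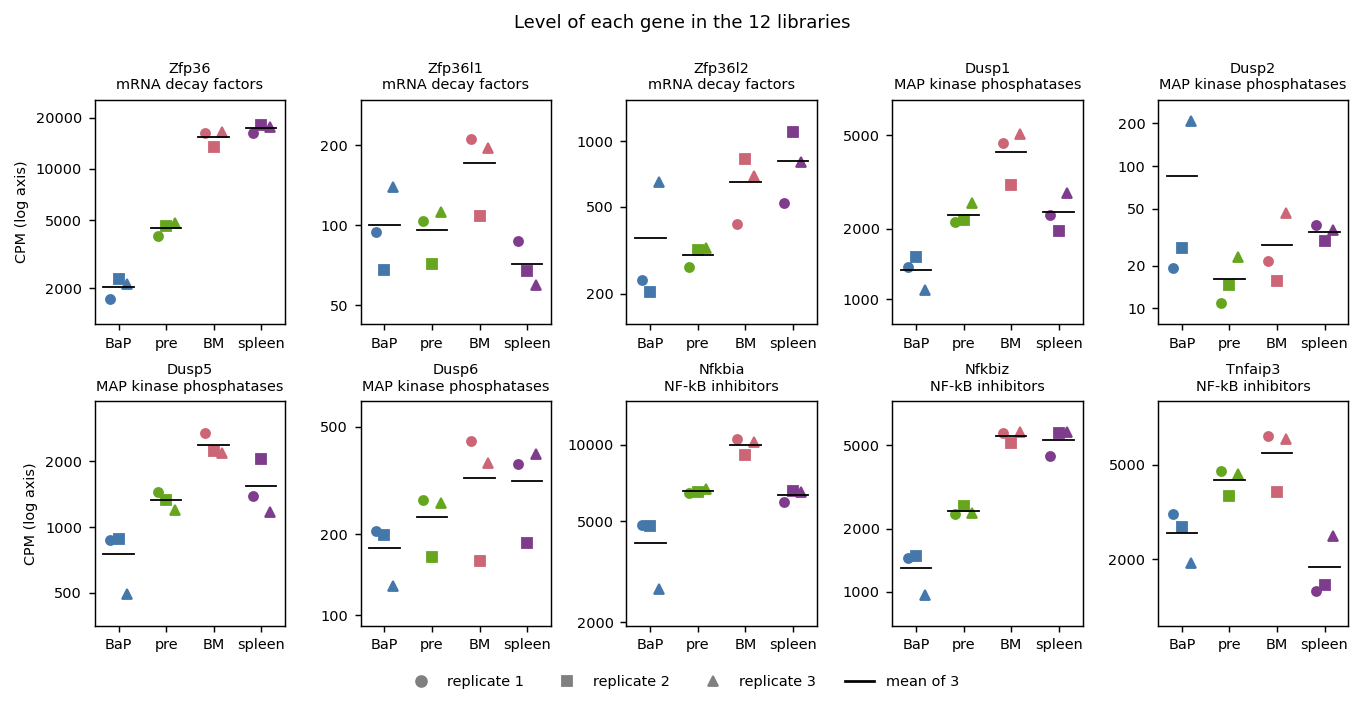
Level of each of the 10 genes in CPM on a log axis, with a separate scale per panel, for BaPs, pre-basophils (pre) and the mature basophils of BM and spleen, where markers show the replicate number and bars the mean of 3 libraries. Zfp36 and Nfkbiz step up from BaPs to pre-basophils to mature basophils, Nfkbia and Dusp1 are highest in BM mature basophils, Tnfaip3 has its lowest mean in the spleen, and BaP replicate 3 stands away from the other BaPs for Dusp2, Zfp36l2, Dusp5 and Nfkbia.

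Among the decay factors, Zfp36 (chr7:28376784-28380253) was lowest in BaPs, intermediate in pre-basophils and highest in mature basophils of both organs. It was at 1730, 2251 and 2127 CPM in BaP replicates 1 to 3 and at 4052, 4628 and 4827 CPM in pre-basophils. It was at 16170, 13500 and 16420 CPM in BM mature basophils and at 16210, 18180 and 17530 CPM in the spleen. The first 3 groups did not overlap, while the mature groups of BM and spleen did. Pre-basophils held 3.41-fold less Zfp36 than BM mature basophils (log2 fold change -1.77, SE 0.14, edgeR adjusted p = 2.08e-06), and BaPs held 2.21-fold less than pre-basophils (log2 fold change -1.15, SE 0.14, edgeR adjusted p = 4.53e-04). Both calls held in all 23 alternative analyses, including the fit without BaP replicate 3 (log2 fold change -1.17 for BaPs against pre-basophils). Between spleen and BM mature basophils the log2 fold change was 0.17, with a 95% interval from -0.12 to 0.46 (edgeR adjusted p = 0.463), so a rise of up to 0.46 was within the error. The sequenced RNA comes from many cells, and in such bulk samples fewer cells that express a gene cannot be told apart from less RNA per cell.

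Zfp36l1 (chr12:80107754-80113013), whose protein shares the zinc fingers of ZFP36 and is known for roles in lymphocyte development, had a different pattern with a peak in BM mature basophils. It was at 94.4, 67.7 and 139 CPM in BaPs, at 104, 71.3 and 112 CPM in pre-basophils, at 212, 109 and 195 CPM in BM mature basophils and at 87.1, 67.2 and 59.5 CPM in the spleen. BM mature replicate 2 overlapped the pre-basophils, whereas all BM mature libraries lay above all spleen libraries. Zfp36l1 was 2.41-fold lower in spleen than in BM mature basophils (log2 fold change -1.27, SE 0.28, edgeR adjusted p = 0.0186). That call was lost without BM mature replicate 1 (adjusted p = 0.0834), BM mature replicate 3 (0.0681), spleen mature replicate 2 (0.0660) or spleen mature replicate 3 (0.0948). It was 1.79-fold lower in pre-basophils than in BM mature basophils (log2 fold change -0.84, SE 0.28, edgeR adjusted p = 0.0392). This call was lost in 9 of 23 alternatives, with adjusted p-values between 0.0518 and 0.160. They were leaving out pre-basophil replicate 1, 2 or 3, BM mature replicate 1 or 3, or spleen mature replicate 2, and scaling by library size alone, repeated TMM scaling and limma-voom. BaPs and pre-basophils had a log2 fold change of 0.07, with a 95% interval from -0.53 to 0.67, and of -0.24 without BaP replicate 3 (edgeR adjusted p = 0.582).

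Zfp36l2 (chr17:84183931-84187947), the third decay factor, had a wide spread within the BaPs and both groups of mature basophils. It was at 231, 204 and 648 CPM in BaPs, at 266, 317 and 322 CPM in pre-basophils, at 419, 832 and 692 CPM in BM mature basophils and at 518, 1103 and 805 CPM in the spleen. All mature libraries lay above all pre-basophil libraries, and BaP replicate 3 lay among the mature libraries. Pre-basophils held 2.68-fold less than spleen mature basophils (log2 fold change -1.42, SE 0.39, edgeR adjusted p = 0.00940), a call that held in all 22 alternatives. Against BM mature basophils it differed by -1.10 on the log2 scale (SE 0.39, edgeR adjusted p = 0.0505). It was called in 11 of 23 alternatives, among them the replicate number as a block (adjusted p = 0.0206), leaving out BaP replicate 1 (0.0391), 2 (0.0334) or 3 (8.49e-04), BM mature replicate 1 (0.0358) or spleen mature replicate 1 (0.0487). Without BaP replicate 3, the BaPs also differed from BM mature basophils, with a log2 fold change of -1.57 (edgeR adjusted p = 8.14e-05) in place of -0.84 with all 3 BaP libraries (edgeR adjusted p = 0.0928). BaPs against pre-basophils gave 0.26 with BaP replicate 3 and -0.47 without it, and neither was called (edgeR adjusted p = 0.752 and 0.257). BaPs against spleen gave -1.16 (edgeR adjusted p = 0.0215), and -1.89 (-1.885) without BaP replicate 3. That call was lost in 5 of 22 alternatives, namely without BaP replicate 1 (adjusted p = 0.0816) or 2 (0.0827) or spleen mature replicate 2 (0.0987), with library size alone (0.128) and with the 2 groups alone (0.0708).

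Among the MAP kinase phosphatases, Dusp1 (chr17:26505590-26562128), which acts mainly on p38 and JNK, rose at both steps within the BM and was lower again in the spleen. It was at 1375, 1519 and 1099 CPM in BaPs, at 2128, 2176 and 2570 CPM in pre-basophils, at 4637, 3053 and 5045 CPM in BM mature basophils and at 2282, 1954 and 2828 CPM in the spleen. The groups of the BM did not overlap, and the spleen libraries lay below all BM mature libraries and overlapped with the pre-basophils. Pre-basophils held 1.85-fold less than BM mature basophils (log2 fold change -0.89, SE 0.19, edgeR adjusted p = 0.00374), which was called in all 23 alternatives. BaPs held 1.72-fold less than pre-basophils (log2 fold change -0.78, SE 0.19, edgeR adjusted p = 0.0284), a call that was lost when any pre-basophil library was left out (adjusted p between 0.0685 and 0.116) and held without BaP replicate 3 (adjusted p = 0.0230). The spleen held 1.80-fold less than the BM mature basophils (log2 fold change -0.85, SE 0.19, edgeR adjusted p = 0.0202). This was lost when BM mature replicate 1 or 3 or spleen mature replicate 1 or 2 was left out (adjusted p between 0.0604 and 0.0857). Over both BM steps, BaPs against BM mature basophils gave a log2 fold change of -1.67 (edgeR adjusted p = 1.42e-05), called in all 23 alternatives. Pre-basophils and spleen mature basophils had a log2 fold change of -0.04, with a 95% interval from -0.45 to 0.37.

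Dusp5 (chr19:53529109-53542431), a nuclear ERK phosphatase that ERK itself induces, followed Dusp1 within the BM. It was at 877, 879 and 496 CPM in BaPs, at 1446, 1336 and 1196 CPM in pre-basophils, at 2684, 2234 and 2181 CPM in BM mature basophils and at 1394, 2059 and 1170 CPM in the spleen. None of the 3 BM groups overlapped with another, and all spleen libraries lay below the BM mature libraries. Pre-basophils held 1.79-fold less (1.785) than BM mature basophils (log2 fold change -0.84, SE 0.225, edgeR adjusted p = 0.0137), a call lost without pre-basophil replicate 3 (adjusted p = 0.0579) or BM mature replicate 1 (0.0640). BaPs held 1.77-fold less than pre-basophils (log2 fold change -0.82, SE 0.225, edgeR adjusted p = 0.0428), which was lost in 11 of 23 alternatives, with adjusted p-values up to 0.151, among them each omission of a pre-basophil or BM mature library and that of spleen mature replicate 1. It held without BaP replicate 3, where the log2 fold change was -0.59 (adjusted p = 0.0343). Over both BM steps, BaPs against BM mature basophils gave a log2 fold change of -1.66 (edgeR adjusted p = 5.7e-05), called in all 23 alternatives. Spleen against BM mature basophils gave a log2 fold change of -0.62 (SE 0.22, edgeR adjusted p = 0.106), which was called without BaP replicate 3 (adjusted p = 0.00930).

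Dusp6 (chr10:99263231-99267489), the cytoplasmic ERK phosphatase, was not called in any comparison in the edgeR fit with TMM scaling, the filter on low counts and no block. It was at 206, 199 and 128 CPM in BaPs, at 269, 165 and 261 CPM in pre-basophils, at 443, 159 and 367 CPM in BM mature basophils and at 364, 186 and 397 CPM in the spleen. Replicate 2 was the lowest of its group in pre-basophils and in the mature basophils of both organs, and these groups overlapped. The log2 fold change of pre-basophils against BM mature basophils was -0.48, with a 95% interval from -1.23 to 0.27 (edgeR adjusted p = 0.336). The largest difference was that of BaPs against BM mature basophils, at -0.87 (SE 0.35, edgeR adjusted p = 0.0579). It was called in 6 of 23 alternatives, among them the replicate number as a block (adjusted p = 0.0425) and leaving out BM mature replicate 2 (adjusted p = 0.00923) or spleen mature replicate 2 (0.0406). BaPs against spleen gave -0.83 (SE 0.35, edgeR adjusted p = 0.0567), which was called without BM mature replicate 2 (0.0250) or spleen mature replicate 2 (0.0181). The test over all groups called Dusp6 without BM mature replicate 2 (adjusted p = 0.0232).

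Dusp2 (chr2:127336159-127338376), another nuclear phosphatase, best known from activated lymphocytes, had the fewest counts. It was at 19.4, 26.4 and 209 CPM in BaPs, at 10.9, 14.6 and 22.9 CPM in pre-basophils, at 21.6, 15.5 and 47.0 CPM in BM mature basophils and at 38.4, 29.9 and 35.6 CPM in the spleen. BaP replicate 3, the library with raised T and NK cell markers, lay far above the other BaPs, and all groups overlapped with each other except for pre-basophils and spleen. The log2 fold change of BaPs against pre-basophils was 2.4 (SE 0.72, edgeR adjusted p = 0.0593) with all libraries, 1.98 with the replicate number as a block (edgeR adjusted p = 0.0345) and 0.46 without BaP replicate 3 (edgeR adjusted p = 0.445). The first of these was called without BaP replicate 1 (2.85, adjusted p = 0.0167) or 2 (2.81, adjusted p = 0.0244). Pre-basophils against spleen gave -1.07 (edgeR adjusted p = 0.240), which was called without BaP replicate 3 (adjusted p = 0.00746). The difference among all groups (edgeR adjusted p = 0.0371) was lost in 9 of 20 alternatives, among them each omission of a pre-basophil or spleen library and of BM mature replicate 1 or 2. The part of other cells in these counts was not tested.

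Among the NF-kB inhibitors, Nfkbia (chr12:55489410-55492647), which NF-kB itself induces, peaked in BM mature basophils. It was at 4829, 4774 and 2709 CPM in BaPs, at 6474, 6496 and 6695 CPM in pre-basophils, at 10590, 9139 and 10240 CPM in BM mature basophils and at 5948, 6557 and 6506 CPM in the spleen. All BM mature libraries lay above all others, all BaP libraries lay below all others, and pre-basophils and spleen overlapped. Pre-basophils held 1.52-fold less than BM mature basophils (log2 fold change -0.61, SE 0.18, edgeR adjusted p = 0.0213), a call that was lost when any pre-basophil library or BM mature replicate 1 or 3 was left out (adjusted p between 0.0544 and 0.0791) and after repeated TMM scaling (0.0646). BaPs held 1.60-fold less than pre-basophils (log2 fold change -0.68, SE 0.18, edgeR adjusted p = 0.0369). This call was lost in 13 of 23 alternatives, among them each omission of a pre-basophil, BM mature or spleen library and the block within the BM libraries (adjusted p = 0.0524), and held without BaP replicate 3 (log2 fold change -0.44, adjusted p = 0.00746). The spleen held 1.58-fold less than the BM mature basophils (log2 fold change -0.66, SE 0.18, edgeR adjusted p = 0.0400), and every omission of a library other than a BaP raised the adjusted p above the threshold, to between 0.0578 and 0.134. Over both BM steps, BaPs against BM mature basophils gave a log2 fold change of -1.28 (edgeR adjusted p = 6.48e-05), called in all 23 alternatives. Pre-basophils against spleen gave a log2 fold change of 0.05, with a 95% interval from -0.33 to 0.43.

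Nfkbiz (chr16:55811375-55838899), whose protein is needed for Il6 induction in macrophages, rose at both steps within the BM. It was at 1449, 1478 and 963 CPM in BaPs, at 2356, 2565 and 2370 CPM in pre-basophils, at 5725, 5117 and 5779 CPM in BM mature basophils and at 4425, 5739 and 5784 CPM in the spleen. BaPs, pre-basophils and mature basophils did not overlap, and the mature groups did. Pre-basophils held 2.28-fold less than BM mature basophils (log2 fold change -1.19, SE 0.16, edgeR adjusted p = 1.38e-04), and BaPs held 1.88-fold less (1.875) than pre-basophils (log2 fold change -0.91, SE 0.16, edgeR adjusted p = 0.00536). Both were called in all 23 alternatives. Between spleen and BM mature basophils the log2 fold change was -0.06, with a 95% interval from -0.40 to 0.29.

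Tnfaip3 (chr10:19000910-19015657) was the member with the largest difference between the organs. It was at 3111, 2723 and 1932 CPM in BaPs, at 4710, 3685 and 4546 CPM in pre-basophils, at 6589, 3826 and 6436 CPM in BM mature basophils and at 1469, 1562 and 2506 CPM in the spleen. The spleen libraries lay below all BM mature and all pre-basophil libraries and overlapped with the BaPs, and the BaPs lay below the pre-basophils. The spleen held 3.04-fold less than BM mature basophils (log2 fold change -1.61, SE 0.25, edgeR adjusted p = 0.00389), a call that held in all 22 alternatives with values from -1.89 to -1.46. The spleen also held 2.34-fold less than pre-basophils (edgeR adjusted p = 0.00128). Within the BM, neither step was called. The log2 fold change was -0.38 for pre-basophils against BM mature basophils (95% interval from -0.91 to 0.14, edgeR adjusted p = 0.275) and -0.74 for BaPs against pre-basophils (95% interval from -1.26 to -0.21, edgeR adjusted p = 0.0846). DESeq2 called the latter, with an adjusted p of 0.0478, as did edgeR without a filter on low counts (adjusted p = 1.8e-05). Over both BM steps, BaPs held 2.17-fold less Tnfaip3 than BM mature basophils (edgeR adjusted p = 0.00222). This difference was called in all 23 alternatives, and the libraries of these groups did not overlap.

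**Figure D2:**
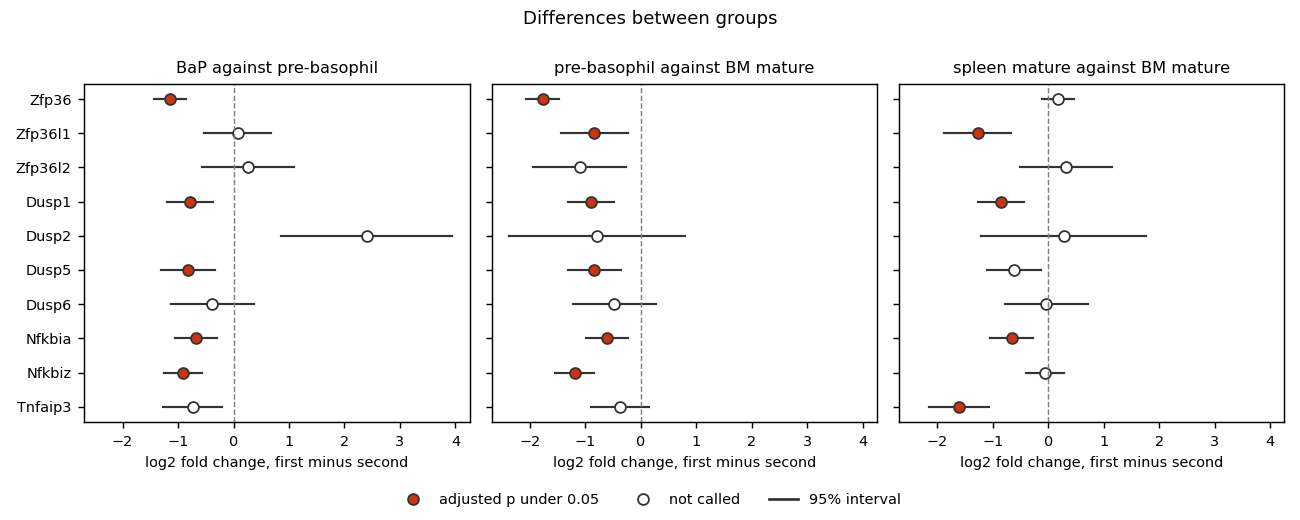
Log2 fold change (first group minus second) of each gene in the 3 main comparisons, with its 95% interval from the edgeR fit of all 12 libraries. Filled points have an adjusted p under 0.05. All filled points lie below 0, and Dusp2 has the widest interval in each comparison.

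The order of the group means placed the members in 3 patterns. Zfp36 and Zfp36l2 were highest in the spleen and BM mature basophils, which did not differ beyond their spread, and Nfkbiz had the same pair on top. Dusp1, Dusp5 and Nfkbia were highest in BM mature basophils, with pre-basophils and spleen next to each other without a called difference and BaPs lowest. Zfp36l1 and Tnfaip3 were highest in BM mature basophils and lowest in the spleen. For Tnfaip3, spleen and BaPs were neighbours with a log2 fold change of 0.49 for BaPs against spleen (edgeR adjusted p = 0.105), which was called without BaP replicate 3 (adjusted p = 0.0111) or spleen mature replicate 3 (adjusted p = 0.0225) and with library size alone (adjusted p = 0.00497). For Zfp36l1, the 3 lower groups had no called difference between them in the edgeR fit of all libraries with TMM scaling. BaPs against spleen was called without BaP replicate 2 (edgeR adjusted p = 0.0417), with library size alone (0.0293) and without a filter (0.00563), and pre-basophils against spleen with the 2 groups alone (0.0325) and without a filter (0.0301). Dusp2 and Dusp6 had no called difference between any 2 groups in the edgeR fit with TMM scaling, the filter and no block, beside the calls under other settings given above.

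Together the 10 genes took 1.35% to 1.59% of the counts of a BaP library, 2.17% to 2.29% in pre-basophils, 3.54% to 4.0% in BM mature basophils and 3.23% to 3.56% in the spleen. The BM groups did not overlap in this share. They did not overlap in the share of mitochondrial counts either, which was 1.75% to 3.53% in BaPs, with the highest value in replicate 3, 1.53% to 1.64% in pre-basophils, 1.19% to 1.31% in BM mature basophils and 0.9998% to 1.21% in the spleen, and whose part in the results was not tested. In a list of 22 immediate-early and heat-shock genes, Fos, Jun, Dnajb1 and others are known to respond to tissue dissociation. None of the 10 members is in this list, whose summed level followed the same order within the BM. Its genes did not all do so. Against BM mature basophils, 12 of the 22 were lower and 2 were higher in BaPs. The heat-shock gene Hsp90ab1 was at 1169, 1029 and 1056 CPM in BaPs and at 515, 470 and 564 CPM in BM mature basophils. The summed level of the list was 25570 to 35970 CPM in BaPs, 46470 to 54100 CPM in pre-basophils, 88400 to 109800 CPM in BM mature basophils and 107400 to 129100 CPM in the spleen. In this list 9 of 22 genes were lower and 1 was higher in pre-basophils than in BM mature basophils, with a median log2 fold change of -0.78, and 8 were lower and 1 was higher in BaPs than in pre-basophils (9 and 1 without BaP replicate 3). Junb, a subunit of AP-1, fell from 9635 ± 460 CPM (SD, n = 3) in BM mature basophils to 3374 ± 260 CPM in pre-basophils (log2 fold change -1.51, edgeR adjusted p = 4.47e-06). Between spleen and BM, 3 of the 22 were higher in the spleen and 1, Ier3, was lower, while all 4 called members were lower there. The list shares Btg2 and Ier3 with lists described below. The part of sorting and tissue handling in the members' levels was not tested.

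**Figure D3:**
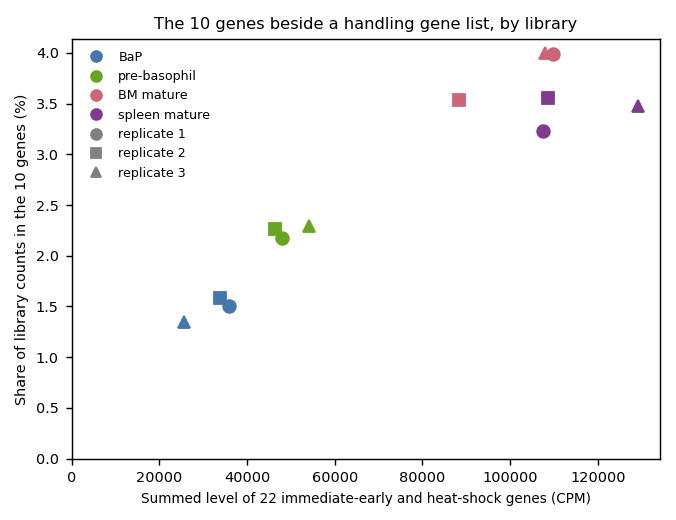
Share of each library's counts in the 10 genes (%, vertical axis) against the summed level of 22 immediate-early and heat-shock genes (CPM, horizontal axis). Each point is a library, with colour for the group and shape for the replicate. The BM groups lie in the order BaP, pre-basophil, BM mature on both axes, and the spleen libraries, at 107400 to 129100 CPM of handling genes, have a lower share than BM mature replicates 1 and 3.

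The other genes of the pathways were grouped in lists, which overlap in a few genes. Of all tested genes, 11.0% were lower and 16.3% were higher in pre-basophils than in BM mature basophils. In BaPs against pre-basophils 4.29% were lower and 2.79% higher, and in spleen against BM 4.67% were lower and 3.16% higher. The counts of each list, and of the handling genes above, were not tested against these shares. In the list of 34 AU-rich element binding proteins and decay enzymes, 5 were lower and 2 were higher in pre-basophils than in BM mature basophils, 3 were lower in BaPs than in pre-basophils (4 without BaP replicate 3), and 2 were lower in the spleen than in the BM. The medians of this list were -0.08, 0.04 and 0.01 (0.005) on the log2 scale. Zc3h12a, which encodes the endoribonuclease regnase-1, was lower in all 3 comparisons, with 341 ± 36.4 CPM (SD, n = 3 here and below) in BM mature basophils against 190 ± 3.80 CPM in pre-basophils (edgeR adjusted p = 0.00120) and 221 ± 29.3 CPM in the spleen (edgeR adjusted p = 0.0276). Btg2, which stimulates deadenylation by CCR4-NOT, fell from 1782 ± 313 CPM in BM mature basophils to 831 ± 59.4 CPM in pre-basophils (edgeR adjusted p = 9.26e-05). Cnot9, a subunit of the same complex, was 2.61-fold higher in pre-basophils (edgeR adjusted p = 6.50e-04).

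Called changes among transcripts known as targets of ZFP36 went both ways, with more lower than higher in each main comparison. Of the 18 listed, 15 held the heptamer in their 3′ UTR and 11 had enough counts to be tested. Against BM mature basophils, 3 were lower and 1 was higher in pre-basophils, and 7 were lower and 1 was higher in the spleen. The median log2 fold changes of the 11 were -0.21 and -0.76. Tnf was at 307, 294 and 328 CPM in pre-basophils, at 164, 138 and 158 CPM in BM mature basophils and at 31.4, 45.1 and 32.5 CPM in the spleen. These groups did not overlap, with a log2 fold change of 1.01 for pre-basophils against BM (edgeR adjusted p = 0.00456) and of -2.08 for spleen against BM (edgeR adjusted p = 7.73e-04), while Zfp36 differed between the organs by 0.17. Il6 was 4.02-fold lower in the spleen than in BM mature basophils (edgeR adjusted p = 0.00221). Ccl3, which encodes the chemokine MIP-1α, went the same way as Zfp36 within the BM, with 18380 ± 1843 CPM in BM mature basophils against 7511 ± 571 CPM in pre-basophils (edgeR adjusted p = 2.98e-05), but was 1.499-fold lower in the spleen than in the BM (edgeR adjusted p = 0.0284). Myc was 3.17-fold higher in the spleen than in BM mature basophils (edgeR adjusted p = 7.47e-04). Between BaPs and pre-basophils, 6 of the 11 were lower and 1, Myc, was higher in BaPs, with a median log2 fold change of -0.93. Without BaP replicate 3, 7 were lower and 1 was higher, with a median of -0.65. The part of ZFP36 in the levels of these transcripts was not tested.

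Of the 15 other MAP kinase phosphatases and ERK feedback inhibitors, 8 were tested, and 1 was lower and 1 was higher in pre-basophils than in BM mature basophils. These were Dusp16 (log2 fold change -0.76, edgeR adjusted p = 0.00781) and Spred2 (0.80, edgeR adjusted p = 0.0145). Between BaPs and pre-basophils, edgeR, DESeq2 and limma-voom called 0 of the 8, and 1 had an unadjusted p under 0.05 in edgeR. Between spleen and BM, 1 was lower, Dusp10 (log2 fold change -1.29, edgeR adjusted p = 0.0358). Among 21 tested MAP kinases and activators, 6 were lower and 1 was higher in pre-basophils than in BM mature basophils. Mapk12, which encodes p38γ, was at 70.7, 70.4 and 72.1 CPM in BM mature basophils against 9.78, 8.52 and 10.9 CPM in pre-basophils (log2 fold change -2.86, edgeR adjusted p = 8.48e-07), and Mapk14, which encodes p38α, was 2.32-fold lower in pre-basophils (edgeR adjusted p = 1.05e-05). Between BaPs and pre-basophils, 3 of the 21 were lower in BaPs (4 lower and 1 higher without BaP replicate 3), and between spleen and BM, 3 were lower and 1 was higher in the spleen. In the spleen, Mapk12 was 1.69-fold higher than in the BM (edgeR adjusted p = 0.0146).

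Of 15 tested further NF-kB feedback genes, 3 were lower in pre-basophils than in BM mature basophils, 1 was lower and 1 was higher in BaPs than in pre-basophils, and 2 were lower in the spleen than in the BM. Without BaP replicate 3, 3 were lower and 1 was higher in BaPs than in pre-basophils. Among the 3 that were lower in pre-basophils, the largest change was that of Nfkbid, which encodes the nuclear inhibitor IkBNS, at 415 ± 123 CPM in BM mature basophils against 206 ± 21.7 CPM in pre-basophils (log2 fold change -1.01, edgeR adjusted p = 0.00171). In BaPs it was lower again, at 110 ± 18.1 CPM (edgeR adjusted p = 0.0161). Among the 10 NF-kB subunits and IkB kinase genes, 2 were lower and 1 was higher in pre-basophils. Ikbkb, which encodes the kinase that marks IkBα for degradation, was 1.41-fold lower in pre-basophils than in BM mature basophils (edgeR adjusted p = 0.00212) and 1.503-fold lower in BaPs than in pre-basophils (edgeR adjusted p = 0.00377), where it was the 1 of the 10 that was called. Without BaP replicate 3, 3 of the 10 were lower in BaPs. Between spleen and BM, 0 of these 10 were called in edgeR, DESeq2 or limma-voom, and 0 had an unadjusted p under 0.05 in edgeR.

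**Figure D4:**
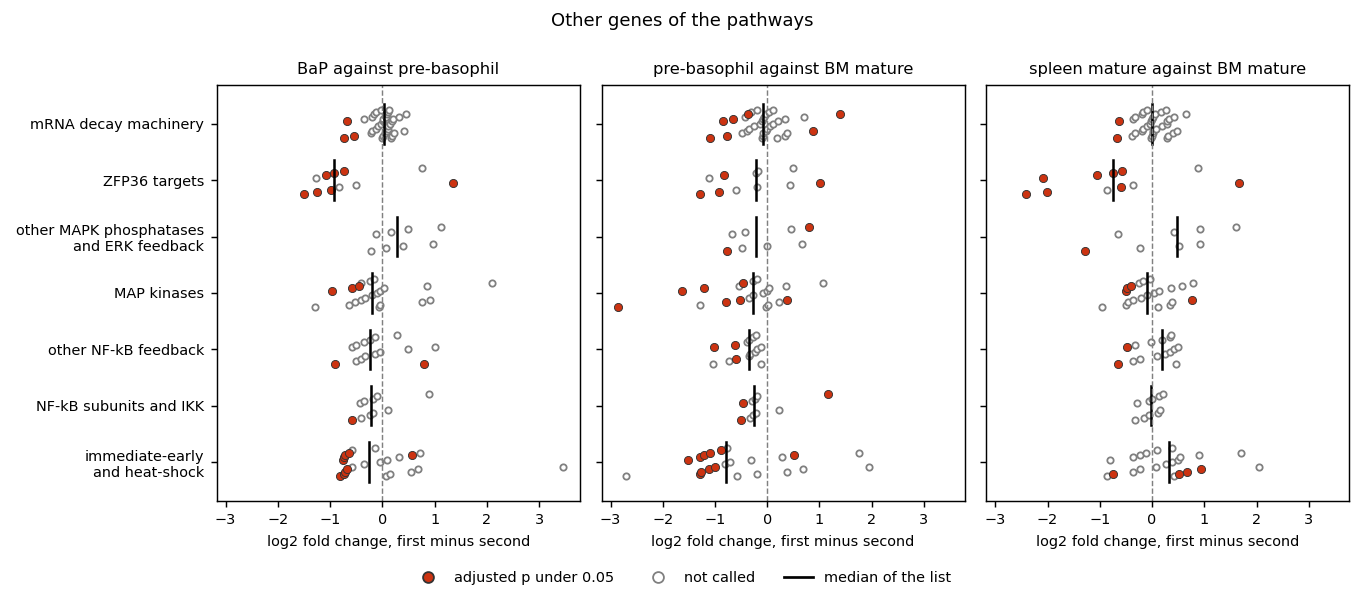
Log2 fold change (first group minus second) of every tested gene of 7 lists in the 3 main comparisons. Filled points have an adjusted p under 0.05 and black bars mark the median of each list. The immediate-early and heat-shock genes have a median of -0.78 for pre-basophils against BM mature basophils, the ZFP36 targets have medians of -0.93 for BaPs against pre-basophils and -0.76 for spleen against BM, and the other medians lie within 0.5 of 0.

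Within groups, some members varied together from library to library. Deviations from the group mean of log2 CPM were correlated over the 12 libraries with r = 0.86 between Dusp1 and Dusp6, 0.86 (0.856) between Dusp1 and Tnfaip3, and 0.91 (0.905) between Nfkbia and Nfkbiz. Without BaP replicate 3 these were 0.84, 0.82 and 0.77. The pairs named had the highest r of all pairs of members over the 12 libraries. Other pairs varied in opposite directions, such as Zfp36l2 and Dusp6 (r = -0.704, and -0.735 without BaP replicate 3). Dusp2 and Nfkbia had r = -0.793 with BaP replicate 3 and 0.364 without it. BM mature replicate 2 was the lowest of its group for Dusp1, Dusp6 and Tnfaip3, with deviations of -0.44, -0.89 and -0.51, and replicate 2 was also the lowest for Dusp6 in pre-basophils and the spleen. For Dusp1, Dusp6 and Tnfaip3, replicate 2 lay below the group mean in pre-basophils (-0.069, -0.455 and -0.219) and in the spleen (-0.253, -0.69 and -0.198) as well. BM mature replicate 2 had the lowest sum of handling genes of its group as well, 88400 CPM against 108000 and 109800 CPM. In BaPs, replicate 3 was the lowest for Dusp1, Dusp5, Dusp6, Nfkbia, Nfkbiz and Tnfaip3 and the highest for Zfp36l1, Zfp36l2 and Dusp2. All values come from the same libraries and share their scaling.

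**Figure D5:**
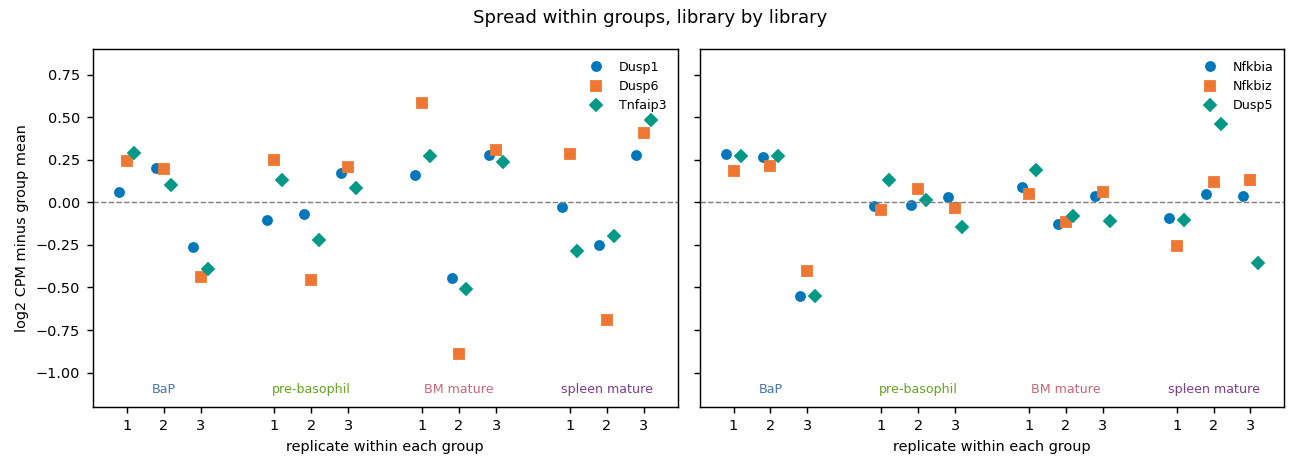
Log2 CPM of 6 members minus the mean of their group, for each replicate of the 4 groups. Dusp1, Dusp6 and Tnfaip3 (left) are below the mean together in BM mature replicate 2 and BaP replicate 3, and Nfkbia, Nfkbiz and Dusp5 (right) spread less in pre-basophils and BM mature basophils than in BaPs, where replicate 3 lies low.

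Genes with the pattern most like each member were sought among 8429 tested genes with a mean of at least 10 CPM, by Pearson correlation of log2 CPM over the 12 libraries. Because the groups differ widely, such correlations mostly reflect the order of the group means. Zfp36 was closest to Pfdn5, which encodes a prefoldin subunit (r = 0.996). Dusp5 was closest to Ccnl1, which encodes cyclin L1 (r = 0.990), followed by Zc3h12a (r = 0.974). Dusp1 was closest to Rgs2, which encodes a regulator of G protein signalling (r = 0.962), which averaged 1291 CPM in BaPs, 2639 CPM in pre-basophils, 5832 CPM in BM mature basophils and 2633 CPM in the spleen. Nfkbia was closest to Ptger3, which encodes a prostaglandin E2 receptor (r = 0.984), and Tnfaip3 to Arhgef3 (r = 0.963) and the pseudokinase gene Trib1 (r = 0.941). Zfp36l1 was closest to Elf1 (r = 0.946), Zfp36l2 to Cnot6l, which encodes a deadenylase of CCR4-NOT (r = 0.945), and Dusp6 to Ppp1r15b (r = 0.894). Dusp2 was closest to the T cell kinase gene Lck (r = 0.949), which was at 118 CPM in BaP replicate 3 against 3.58 and 4.01 CPM in BaP replicates 1 and 2 and averaged 2.76 to 5.80 CPM in the other groups. This likeness was not computed without BaP replicate 3.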

How the data were processed

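RNA of 12 libraries of sorted basophil-lineage cells was analysed, grouped by sample title. The deposited values are raw counts of reads for each gene. The authors amplified polyadenylated RNA of sorted cells with the TAS-Seq workflow and mapped reads to transcripts. The submitters' processing notes list Cutadapt 3.4 and Bowtie2 2.4.2 and the build GRCm39, whereas the study's methods name GRCm38. The table holds symbols without coordinates, and coordinates given here are GENCODE M21 on GRCm38. The sources mention no molecular identifiers, so intervals cover no PCR error. Whether strand was used in counting is not stated in these sources, and antisense genes are annotated over Zfp36, Zfp36l1, Zfp36l2 and Dusp5, and Ergic1 over the longest form of Dusp1, so their reads may be mixed.

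Genes were filtered with filterByExpr, scaled by TMM and fitted over all 12 libraries in edgeR 4.0.16 (R 4.3.3) with 1 coefficient per group, a quasi-likelihood F test and Benjamini-Hochberg adjustment over 15083 genes. The script was tested on simulated data. DESeq2 1.42.0, limma 3.58.1 (voom), other scalings (among them the repeated TMM of TCC, the study's package), filters, a replicate block and leaving out each library were alternatives. A count of 0 allows 3 counts, or 0.290 to 0.955 CPM. No pair of replicates agreed within sampling noise (chi-square per degree of freedom 4.16 to 35.0). Replicate numbers were taken to pair the BM libraries, because the deviations of same-numbered libraries correlated in all 3 pairs of each BM comparison (r from 0.125 to 0.262). Across organs these correlations were weaker (r from 0.000366 to 0.0899). A block within the BM libraries was added after this check. The tests in the results do not use this pairing unless a block is named.

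Named genes were the 10 members, in each further list and main comparison up to 3 called genes with the largest and 3 with the smallest fold change whose mean reached 10 CPM in either group, and the 2 genes most like each member. A gene most like Nfkbiz and a UTR window are not reported here. Members and lists were chosen with earlier results of these data known.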

Additional observations from a re-analysis of the deposited data

How the results depend on the processing

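Over 1553 values of single members under the alternatives, 1382 kept their direction and their side of the threshold, 86 lost a call, 64 gained a call, 21 uncalled values changed sign and 0 called values reversed. DESeq2 gave Dusp2 no adjusted p. Members called between BaPs and pre-basophils fell from 5 to 3 with DESeq2 size factors, with repeated TMM scaling and with the 2 groups fitted alone, and to between 2 and 6 when single libraries were left out. In the first 3 of these cases, 985, 917 and 375 of all genes were called in place of 1068. Leaving out single libraries gave 3 to 7 members for pre-basophils against BM mature basophils, 1 to 5 between spleen and BM, 6 to 8 between BaPs and BM mature basophils, 6 to 7 between BaPs and spleen, 4 to 5 between pre-basophils and spleen, and 7 to 9 over all groups. Of all genes, it gave 2831 to 5251 calls for pre-basophils and 5708 to 7549 for BaPs against BM mature basophils. Against spleen it gave 7047 to 9065 for BaPs and 5491 to 8010 for pre-basophils, and over all groups 7587 to 9690. Without a filter on low counts, 10 members were called between BaPs and spleen and 7 between pre-basophils and spleen, and the cause was not tested. Of all genes, 9017 and 7123 were called there, in place of 8213 and 6899. With the replicate number as a block, 7 members were called for pre-basophils against BM mature basophils, 6 between BaPs and pre-basophils, 5 between spleen and BM, 9 between BaPs and BM mature basophils, 7 between BaPs and spleen, 4 between pre-basophils and spleen and 9 over all groups, and within the BM libraries alone the block gave 7, 5 and 10 for the 3 BM comparisons. Of all genes, the block called 4483, 1399, 1703, 7069, 8558, 7272 and 9081 in the same order. Without it these were 4112, 1068, 1181, 6785, 8213, 6899 and 8714. Within the BM libraries the block called 4399, 1292 and 6839. Beside the calls given with the results, the block added Zfp36l2 (adjusted p = 0.0310) for BaPs against BM mature basophils and Dusp6 (0.0353) for BaPs against spleen, and Dusp2 (0.0478) in the first of these within the BM libraries. Dusp5 was called between spleen and BM with the block (adjusted p = 0.0293), where the deviations of same-numbered libraries correlated only weakly (r from 0.00763 to 0.0254).

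Scaling by library size alone moved the median of all genes by 0.22, 0.23 and 0.14 (0.135) in the 3 main comparisons, and the called members were still lower in the group named as lower. Of the genes called between BaPs and pre-basophils (1068, 39.4% higher in BaPs), this scaling gave 1620 with 79.6% higher. It also gave 82.5% in place of 59.8% higher in pre-basophils against BM mature basophils and 60.6% in place of 40.4% higher in spleen against BM. No filter gave 2091 and 1796 called genes for BaPs against pre-basophils and spleen against BM (1181), the 2 groups alone gave 375 and 2340, and leaving out single libraries gave 382 to 1831 and 241 to 2653. Depth limits Dusp2 most, with 39 to 2156 counts in a library.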
